A study of Drosophila melanogaster with 3 samples.

Results

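The microRNA genes of Drosophila melanogaster were set against the binding sites of Senseless, a zinc finger transcription factor of sensory organ precursor cells. They were all genes of the Ensembl annotation whose symbol starts with mir-, which is also how let-7 (mir-let7) and bantam (mir-ban) are listed. This rule gave 262 genes of 17873 annotated genes, with transposable elements and separate entries for mature microRNAs left out. Of these, 260 lie on the 6 chromosome arms that the peak lists cover and 2 lie on the ribosomal DNA contig. Hairpins on one strand that lie at most 10 kb apart were joined so that a cluster counts once, which gave 203 loci, 181 of them single hairpins and 22 of them clusters of 2 to 12 hairpins.

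Chromatin immunoprecipitation and sequencing (ChIP-seq) with an antibody against green fluorescent protein (GFP) was used to map binding. The chromatin came from whole embryos of both sexes, aged 4 to 14 hours, of a transgenic line that stably carries an insertion of sens with GFP at the C-terminus of the protein. The 3 biological replicates form 1 group, with no embryos without the transgene and no second condition, so every result is a description of where peaks lie and nothing is compared between conditions. A whole embryo mixes all its cell types, and Senseless is known from few of them, so a weak peak in all cells and a strong one in few cells cannot be told apart.

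A microRNA is made from a hairpin in a longer primary transcript. The nuclear enzyme Drosha cuts the hairpin out, Dicer-1 trims it to a duplex, and one strand guides the protein Argonaute-1 to messenger RNAs whose 3′ UTR pairs with the microRNA's seed. Many hairpins sit in introns of protein-coding genes and use the host's promoter, and others have a long non-coding host of their own. In sensory organ development miR-9a is known for holding down sens itself, and miR-279 for limiting which sensory neurons form.

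The mature sequences below belong to the microRNAs that the results turn on, because their seeds set their targets. They were read 5′ to 3′ from the RefSeq annotation and genome of the dm6 assembly, and the capitals mark the seed, bases 2 to 8. The 3 members of the miR-9 family share 1 seed on the 5′ arm. The 5′ arm of mir-79, from the same cluster as mir-9b and mir-9c, carries a different one. The 3′ arms of mir-79 and mir-9a, not printed here, share a seed of their own. mir-279 and mir-996 share a seed, as do mir-92a and mir-92b.
miR-9a, 5′ arm: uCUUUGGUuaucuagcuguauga
miR-9b, 5′ arm: uCUUUGGUgauuuuagcuguaug
miR-9c, 5′ arm: uCUUUGGUauucuagcuguaga
miR-79, 5′ arm: gCUUUGGCgcuuuagcuguauga
miR-279, 3′ arm: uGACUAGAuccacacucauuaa
miR-996, 3′ arm: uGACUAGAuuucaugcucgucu
miR-92a, 3′ arm: cAUUGCACuugucccggccuau
miR-92b, 3′ arm: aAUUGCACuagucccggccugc
bantam, 3′ arm: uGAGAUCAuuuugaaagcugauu
miR-282, 5′ arm: uAGCCUCUacuaggcuuugucugu

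The 3′ UTR of sens (607 bp, minus strand of 3L) holds 1 exact match to the seed shared by miR-9a, miR-9b and miR-9c, at base 375 of the UTR, followed by the A that stands opposite the first base of the microRNA. It is shown because it is the link by which miR-9a is known to act on sens. The seed of the 5′ arm of mir-79 matches once too, at base 154, without that A. All bases of that match but its first G also pair with the seed of miR-9a, miR-9b and miR-9c, as a shorter match. Capitals mark the 7 bases that pair with the seed, on the transcribed strand. A match is a description of the sequence and was not measured as binding or repression.
sens 3′ UTR, match to miR-9a, miR-9b and miR-9c: ttggcagctaaacgtACCAAAGaacaacct
sens 3′ UTR, match to the miR-79 5′ arm: agtcgttgctatgaaGCCAAAGtttgtttt

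The windows of 101 bp around the summits of 5 peaks near microRNA genes follow, on the plus strand of dm6. They are shown because they belong to mir-9a, mir-279 with mir-996, mir-282 and mir-92a, whose mature sequences stand above. Capitals mark AAATCA, the core of the Senseless binding site, on either strand (as AAATCA or TGATTT). Only the second of them holds it, with 1 copy in each orientation.
Summit upstream of mir-279, chr3R:29214399-29214499: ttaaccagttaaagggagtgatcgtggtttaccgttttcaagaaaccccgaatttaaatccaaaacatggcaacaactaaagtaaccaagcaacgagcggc
Summit downstream of mir-996, chr3R:29220051-29220151: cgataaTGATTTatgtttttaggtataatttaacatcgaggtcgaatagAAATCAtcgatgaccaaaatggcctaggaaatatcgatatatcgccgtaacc
Summit upstream of mir-9a, chr3L:19560784-19560884: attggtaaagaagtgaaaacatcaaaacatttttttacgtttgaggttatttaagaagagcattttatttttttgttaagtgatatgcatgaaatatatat
Summit upstream of mir-282, chr3L:3250169-3250269: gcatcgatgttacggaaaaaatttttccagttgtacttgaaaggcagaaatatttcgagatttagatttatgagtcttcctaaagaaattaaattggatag
Summit downstream of mir-92a, chr3R:25646991-25647091: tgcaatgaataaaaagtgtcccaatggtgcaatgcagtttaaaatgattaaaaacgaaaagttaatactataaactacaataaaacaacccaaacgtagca

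Each replicate has its own deposited peak list, with 30000, 30000 and 27681 peaks for replicates 1, 2 and 3. A pooled list holds 28357 peaks, and the authors' list thresholded on the irreproducible discovery rate (IDR) holds 3811, which are exactly the strongest 3811 of the pooled list. Those 3811 are called reproducible here. Each peak has a summit and a signal value of unstated scale, so peaks are given by their rank on that signal within a list, rank 1 being the strongest. Replicates 1 and 2 hold the same round number of peaks. Whether their lists were cut at that number is not given in the sources used here, so no peak in one of them means none among its 30000. The depth of the libraries is unknown.

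Most microRNA loci had no reproducible Senseless-GFP summit close by, and the share that did was near that of tRNA genes. A summit lay within 5 kb of the hairpin at 60 of 203 loci (29.6%, exact 95% binomial interval 23.4 to 36.3%, which here and below covers counting error only). By single hairpins the count was 79 of 260 (30.4%, 24.9 to 36.4%). Of the 60 loci, 42 had 1 summit, 12 had 2 and 6 had 3. Other genes were not joined into clusters, here and below. Among them, 30.7% of tRNA genes, 35.2% of protein-coding gene starts and 55.1% of snoRNA and snRNA genes had a reproducible summit within 5 kb. Of the bases of the 6 arms, 20.7% lay that close to one. When the whole body of a protein-coding gene was counted with 5 kb on each side, the share was 42.4%. The interval for microRNA loci lies above the share of all bases, holds the values of tRNA genes and protein-coding starts, and lies below those of snoRNA and snRNA genes and of whole protein-coding genes.

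The pooled list, which also holds weak peaks, reached most loci of every kind. A pooled summit lay within 5 kb of 165 of 203 microRNA loci (81.3%, 75.2 to 86.4%), or 204 of 260 hairpins (78.5%, 73.0 to 83.3%). The same list reached 94.1% of tRNA genes, 83.4% of protein-coding gene starts, 93.4% of snoRNA and snRNA genes, 87.3% of whole protein-coding genes and 66.4% of bases. Of the 203 loci, 105 had a pooled but no reproducible summit and 38 had neither. A pooled summit near a microRNA gene is thus the common state, and the reproducible list separates the loci far more.

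Close to the hairpin itself, summits were few. Within 1 kb, 15 microRNA loci had a reproducible summit (7.39%, 4.19 to 11.9%), against 17.3% of protein-coding gene starts, 9.31% of tRNA genes and 5.29% of bases. Within 10 kb, 105 loci did (51.7%, 44.6 to 58.8%), against 51.3% of protein-coding starts, 42.4% of tRNA genes and 33.8% of bases. The median distance from a hairpin to the nearest reproducible summit was 8531 bp, against 9452 bp from a protein-coding start and 13059 bp from a tRNA gene. A hairpin is not a transcript start: the nearest annotated start lay a median of 1927 bp away.

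**Figure D1:**
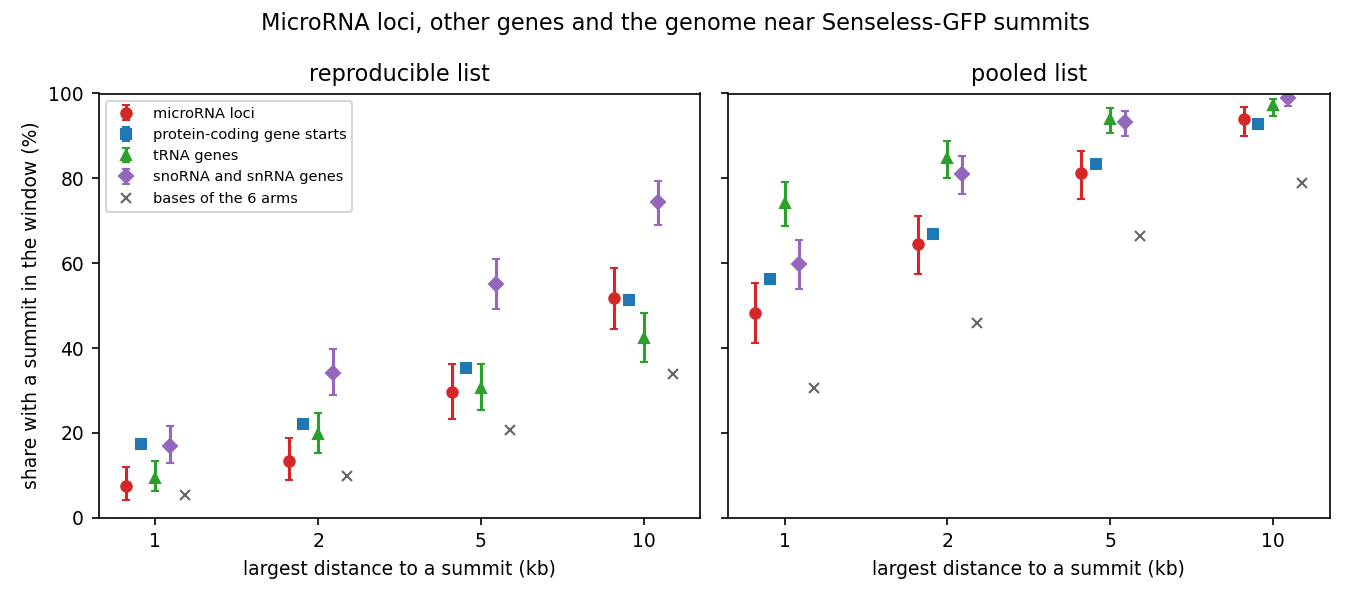
Share of microRNA loci (first mark in each group), protein-coding gene starts, tRNA genes, snoRNA and snRNA genes and genome bases with a reproducible (left) or pooled (right) summit within 1, 2, 5 or 10 kb; bars are exact 95% binomial intervals and bases have none. At 1 kb in the reproducible list the microRNA loci (7.39%) lie below the protein-coding starts (17.3%), and at 10 kb the marks lie at 51.7% and 51.3%. A cluster of hairpins counts once, while the other genes are counted one by one.

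Counts in the single replicates were close to each other. Among the strongest 3811 peaks of each replicate's own list, 60, 62 and 63 loci in replicates 1, 2 and 3 had a summit within 5 kb (30.4% ± 0.709, SD, n = 3). In the full lists the numbers were 178, 163 and 181 (85.7% ± 4.76, SD, n = 3). Of the 60 loci with a reproducible summit, 58 had a peak over their strongest one in all 3 replicate lists, and at 45 it was among the strongest 3811 of every replicate. Replicate 1 held no peak there at mir-4910 and mir-989.

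The miR-9 family comes first, because miR-9a is the known brake on sens. mir-9a (3L, plus strand, 19565131 to 19565208) had 1 reproducible summit within 5 kb, at position 19560834, which is 4297 bp upstream of the hairpin. It ranked 242 in the pooled list with a signal of 609.6, and 160, 263 and 438 in replicates 1, 2 and 3, where its signals were 195.6, 251.2 and 149.2. All 3 replicates thus held it among their strongest peaks, most strongly by rank in replicate 1. The summit lies 356 bp inside lncRNA:CR44676, a non-coding gene whose start is the nearest, and not at the host of the hairpin.

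At the host of mir-9a, lncRNA:CR45916, only weak pooled summits were found. The one closest to its start, 28 bp inside, ranked 21356 in the pooled list, had ranks 10617 and 26628 in replicates 1 and 2 and had no peak in replicate 3. The pooled summit 59 bp upstream of the hairpin ranked 7335, with 7157, 15734 and 5360 in the replicates. The other members of the family, mir-9b and mir-9c, lie with mir-79 and mir-306 in an intron of grp, the gene of the checkpoint kinase Chk1, and no pooled summit lay within 5 kb of that cluster. The nearest reproducible summit was 5071 bp from mir-9b, just past the limit, with rank 2776. Of the 2 loci with the miR-9 seed, 1 therefore carried a strong summit and the other none.

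The strongest summit near any microRNA gene belonged to mir-279 and mir-996. These 2 hairpins, which share a seed and are known for acting together in sensory organ lineages, lie in lncRNA:CR31044 on 3R. The summit at 29214449 lies 113 bp upstream of the annotated start of that host and 1136 bp upstream of mir-279. It ranked 28 of 28357 in the pooled list (signal 1406.4) and 29, 24 and 39 in replicates 1, 2 and 3 (signals 363.9, 615.9 and 436.2). Among all 60 loci it had the highest rank, and its ranks in the 3 replicates were close together.

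The locus held 2 further reproducible summits. The one at 29220101, the second window printed above, lay 2821 bp downstream of mir-996 and ranked 285 (272, 281 and 356 in replicates 1, 2 and 3). It sits 71 bp upstream of eEF1gamma, which encodes a translation elongation factor subunit. The third, at 29211183, lay 4402 bp upstream of mir-279 with rank 2835 (4170, 2879 and 2339), away from annotated starts. Between the hairpins lay 1 summit, in the pooled list only, with rank 6921.

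**Figure D2:**
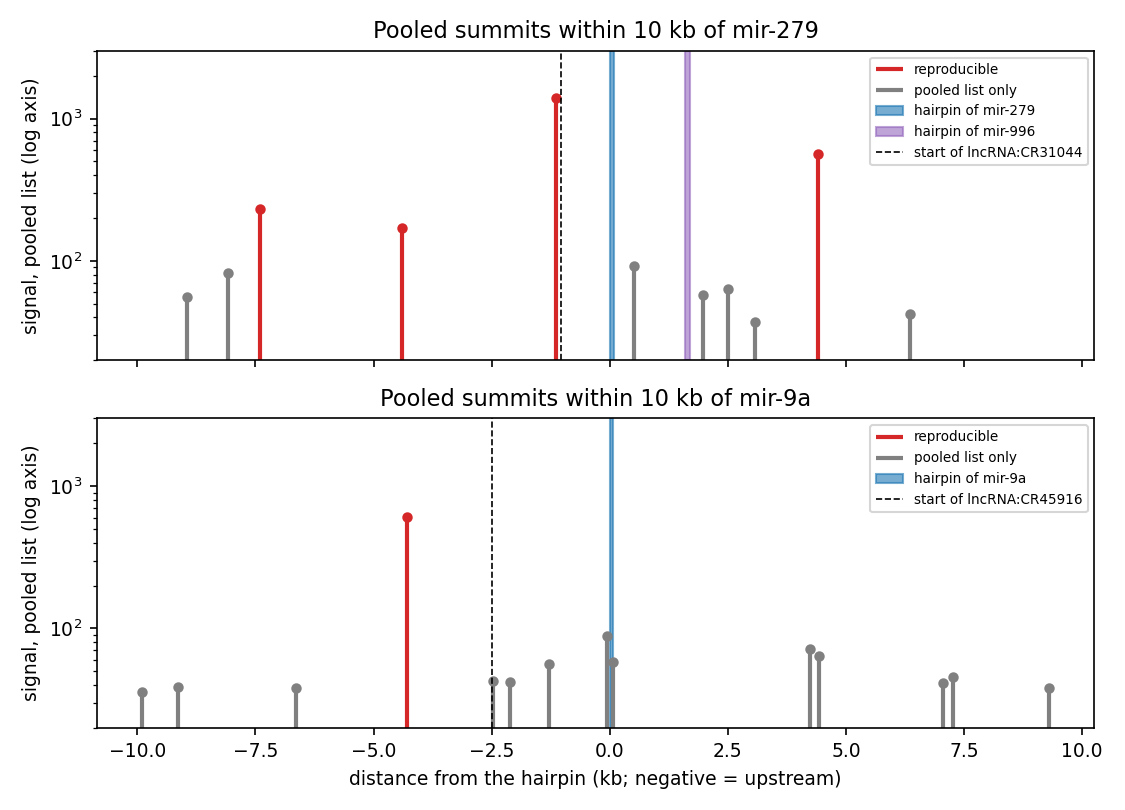
Every pooled summit within 10 kb of mir-279 (top) and mir-9a (bottom), by distance from the hairpin in kb and signal on a log axis; red marks reproducible summits, grey the pooled list only, shaded bars the hairpins and dashed lines the starts of their non-coding hosts. At mir-279 the summit of signal 1406.4 stands beside the host's start; at mir-9a the one reproducible summit (609.6) lies upstream of the host, and the marks at the host's start and at the hairpin stay at 88.1 or less.

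Besides these, 10 more loci had a summit of rank 470 or better. mir-4972 is an intronic hairpin of for, the gene of a cGMP-dependent protein kinase, and its summit ranked 40 (39, 34 and 53 in replicates 1, 2 and 3). That summit lay 4493 bp downstream of the hairpin, 320 bp upstream of a start of for that itself lies downstream of the hairpin. mir-1004, whose hairpin fills an intron of CG43707, had a summit of rank 188 (138, 201 and 265) at 3772 bp downstream. That summit lay 240 bp upstream of bowl, which encodes a zinc finger protein of the odd-skipped family. mir-9382 had rank 382 at 204 bp upstream of a start of its host MRP, an ABC transporter gene, and mir-4943 rank 470 at 386 bp upstream of its host CG5953.

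At mir-9378 the summit was in an intron of CG17124, 161 bp upstream of the hairpin, with rank 159. It had the widest spread among the first 5 loci, with ranks of 87, 316 and 138 in replicates 1, 2 and 3. mir-4981, which lies between genes, had rank 399 (737, 524 and 194), and mir-4968, in an intron of Mob2, rank 445 (415, 358 and 740). Mob2 encodes a kinase adaptor. At all 12 loci with the strongest summits, every replicate ranked the summit 740 or better.

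mir-282 had rank 175 (219, 150 and 209 in replicates 1, 2 and 3; signals 176.7, 321.6 and 206.4). Its summit lay 803 bp upstream of the hairpin and 375 bp upstream of a start of its non-coding host, lncRNA:CR43626. mir-92a and mir-92b, which are known from neural stem cells, lie in jigr1 and shared 1 summit between the hairpins, 441 bp downstream of mir-92a and 205 bp upstream of an internal start of jigr1, with rank 305 (313, 403 and 236). bantam, a growth promoter that represses the cell death gene hid, had rank 348 (449, 371 and 256) at 1435 bp upstream, in an exon of its host lncRNA:CR43334, and rank 468 (607, 442 and 462) at 2041 bp downstream. The start of that host had a pooled summit only, with rank 5268.

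**Figure D3:**
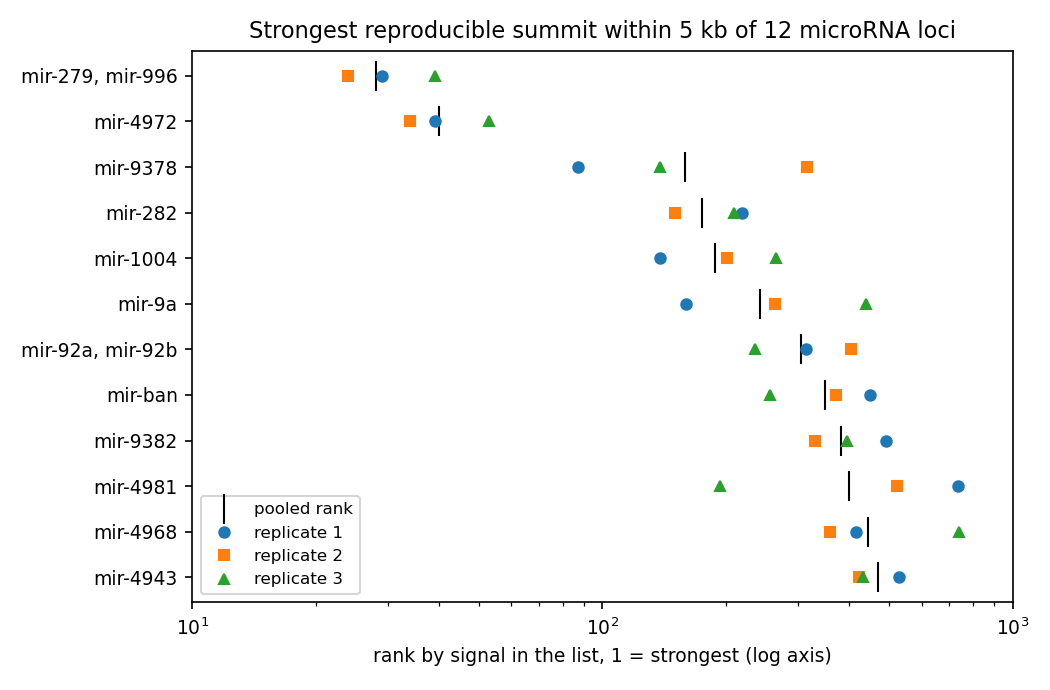
Rank of the strongest reproducible summit within 5 kb of the 12 microRNA loci where it is strongest, in the pooled list (bar) and in replicates 1, 2 and 3 (points), on a log axis with 1 the strongest. mir-279 and mir-996 lie between 24 and 39 in the replicates, mir-9a between 160 and 438, and mir-4981 spreads from 194 to 737.

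The other loci with 3 reproducible summits were mir-4968 (445, 3136 and 3708), mir-955 (522, 1106 and 1861), the mir-281 pair (1088, 1334 and 3140), mir-4962 (1374, 1719 and 2703) and mir-375 (1426, 2460 and 3508). At mir-955 all 3 lay at starts of CG14968. Only 2 hairpins overlapped a reproducible peak, in full or in part. One was mir-4962, in an intron of Tlk, the tousled-like kinase gene, where the summit of rank 2703 fell in the hairpin (2144, 3066 and 2655 in replicates 1, 2 and 3). The other was mir-2491, with the summit 132 bp upstream at rank 3511, where replicate 1 ranked it only 16940 and replicates 2 and 3 ranked it 4055 and 1992.

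The limit of 5 kb cuts through a continuum. Just inside it were mir-970 at 4874 bp, mir-7 at 4880 bp and mir-193 at 4962 bp, with ranks 2380, 1789 and 1076. Just outside were mir-9b at 5071 bp, mir-252 at 5166 bp and mir-125 at 5183 bp, with ranks 2776, 2375 and 1246.

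Loci with a known role, from 10 lists of textbook functions, had a reproducible summit in 16 of 40 cases (40%, 24.9 to 56.7%), against 44 of 163 loci on no list (27.0%, 20.3 to 34.5%). The intervals overlap. Of the 40 listed loci 15 are clusters (37.5%), against 7 of the 163 others (4.29%), and of all 22 clusters 10 had a reproducible summit (45.5%, 24.4 to 67.8%), against 50 of 181 single hairpins (27.6%, 21.3 to 34.7%). A cluster spans more sequence, and the part this plays was not tested.

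The single lists hold 1 to 11 loci each, so their counts are small, and all of them stand against 29.6% over all 203 loci. Among microRNAs of sensory organs and neurons, 4 of 11 loci had a reproducible summit. Beside mir-279 with mir-996, and mir-9a, they were mir-7, which represses Notch target genes, with rank 1789 (2099, 3241 and 1255 in replicates 1, 2 and 3), and mir-bft (mir-263a), which protects bristle cells from death, with rank 2086 (2398, 2569 and 1689). mir-263b, its relative with the same role, had only a pooled summit of rank 9810. mir-124, the neuronal microRNA, had rank 10797, mir-276a 4857, mir-276b 6488, mir-190 9471 and mir-315 23751, none of them reproducible, and mir-932 had no pooled summit. The list thus runs from the strongest microRNA summit to none at all.

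Growth and cell survival microRNAs had a reproducible summit at 5 of 11 loci. After bantam came mir-8, which promotes growth through insulin signalling, with rank 645 (620, 735 and 752 in replicates 1, 2 and 3). A second summit of mir-8, with rank 799, lay inside its host lncRNA:CR43650, 151 bp upstream of an internal start. mir-14, which limits cell death and fat stores, had rank 1848 (3602, 1830 and 1602) at 40 bp inside its host lncRNA:CR43651. The K-box seed family, which represses cell death genes and Notch targets, has 14 genes in 7 loci. Against 29.6% of all 203 loci, 2 of the 7 had a reproducible summit within 5 kb. These were the mir-2a-2 cluster (rank 2246) and the mir-2c cluster (rank 2727), and of the others mir-308 had a pooled rank of 5286, mir-11 6341, mir-13b-2 8661 and mir-2b-1 13699.

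Muscle microRNAs had a reproducible summit at 1 of 3 loci and timing microRNAs at 2 of 3. The muscle locus was that of mir-92a and mir-92b, of which the second tunes the muscle factor Mef2, at rank 305, and mir-1 and mir-133 had pooled ranks of 17973 and 18482. Of the timing list, mir-14 had its summit of rank 1848 and mir-34 one of rank 3277, while the let-7 cluster had none: mir-let7 and mir-125 had no pooled summit within 5 kb and mir-100 one of rank 16379. The 4 Hox cluster microRNAs had pooled summits only, at rank 5189 for mir-iab-4 and mir-iab-8, which lie on opposite strands of the same place, 7207 for mir-10 and 14980 for mir-993. The cluster from mir-309 to mir-6-3, which clears maternal messenger RNAs in the early embryo, had no pooled summit within 5 kb of any of its 8 hairpins.

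Metabolism and ageing microRNAs had a reproducible summit at 4 of 5 loci, one of them again mir-14 (rank 1848). mir-33, in an intron of SREBP, a lipid synthesis regulator, had rank 813 (421, 913 and 1341 in replicates 1, 2 and 3). The cluster of mir-317, mir-277 and mir-34 had rank 1918 and mir-275 with mir-305 rank 3447, while mir-278 had a pooled rank of 9699. Of 4 oogenesis and germline loci 2 had one, both near the end of the list, mir-989 at rank 3547 and the cluster of mir-310 at 3611. Of the 2 testis clusters on X, the one of 12 hairpins had rank 2495, at the start of Grip84, and the other a pooled rank of 8465.

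**Figure D4:**
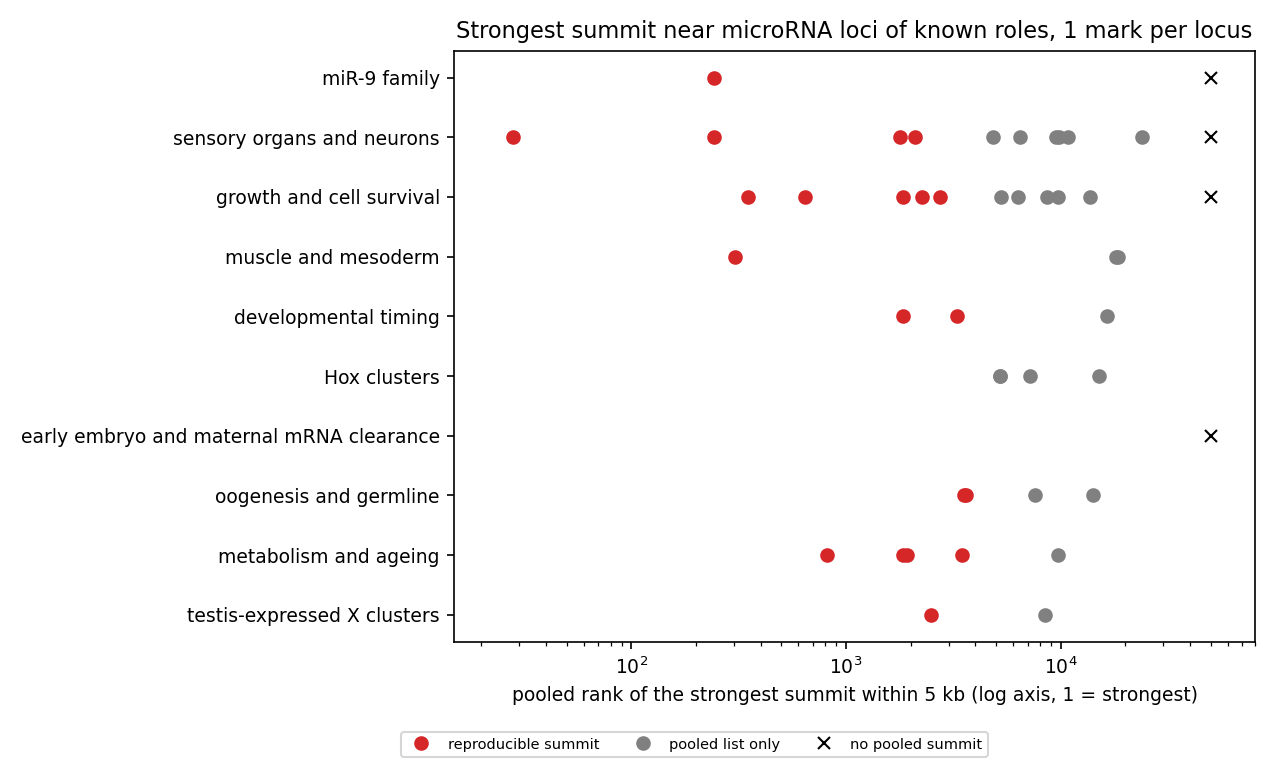
Pooled rank of the strongest summit within 5 kb of the listed hairpins, 1 mark per locus and list on a log axis; red marks reproducible summits, grey the pooled list only and crosses at the right edge no pooled summit. The leftmost marks are mir-279 with mir-996 (28) and mir-9a (242); the Hox loci lie at 5189 and beyond.

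Primary transcripts can start far from the hairpin, so the hosts' own starts were examined too. Any annotated start of a host counted, here and below, also one downstream of the hairpin, which cannot begin a transcript that holds it. The summits at starts of for, tacc and Oda are of this kind. So is the summit of rank 305 at jigr1 for mir-92a, but not for mir-92b. Of 128 protein-coding hosts on the hairpin's strand, 32 had a reproducible summit within 500 bp of one of their starts (25%, 17.8 to 33.4%), against 16.4% of all protein-coding genes. Of 37 non-coding hosts 6 had one (16.2%, 6.19 to 32.0%), against 5.71% of non-coding RNA genes other than hairpins. Some hosts share an annotated start and with it the summit. With genes that share a start counted once, the counts were 29 of 125 protein-coding hosts (23.2%, 16.1 to 31.6%), against 16.3%, and 6 of 36 non-coding hosts (16.7%, 6.37 to 32.8%), against 5.72%. The first interval then holds the share of all protein-coding genes, and the second lies above that of non-coding RNA genes. The protein-coding hosts are long, with a median of 14094 bp and 2 starts, against 2166 bp and 1 start over all protein-coding genes, and the part of length and of extra starts was not tested. The non-coding hosts have a median of 6436 bp and 1 start. The lengths of other non-coding RNA genes were not measured, so the part of length was not tested there either.

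The non-coding hosts with a summit at their start were those of mir-279 with mir-996 (rank 28), mir-282 (175), mir-8 (799), mir-14 (1848), mir-4951 (2267) and mir-31b (3621). The host of mir-4951 is Hsromega, a heat shock long non-coding RNA. Among the protein-coding hosts, the strongest after for was spi, with rank 124 (172, 142 and 90 in replicates 1, 2 and 3) at 206 bp upstream of a start. spi encodes the EGF receptor ligand Spitz and carries the mir-2a-2 cluster, 5529 bp from that summit. Btk, a tyrosine kinase gene that carries mir-2b-1, had rank 212 (149, 161 and 445) at 159 bp upstream of a start 19169 bp from the hairpin. A window of 5 kb misses such sites: the summit lay over 5 kb from the hairpin at 18 of the 32 protein-coding and 2 of the 6 non-coding hosts, or 16 of the 29 protein-coding hosts with shared starts counted once. Counting either kind, 74 of 203 loci (36.5%) had a reproducible summit within 5 kb or at a host's start. Of tRNA genes, each counted on its own and not by cluster, 32.4% did, and of snoRNA and snRNA genes 58.1%.

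Counts by the setting of the hairpin overlapped in their intervals. A reproducible summit lay within 5 kb of 38 of 124 loci in protein-coding hosts (30.6%, 22.7 to 39.6%), 9 of 29 in non-coding hosts (31.0%, 15.3 to 50.8%) and 7 of 28 between genes (25%, 10.7 to 44.9%). It lay near 3 of 17 loci with a gene on the other strand only and near 3 of 5 of mixed setting. Hairpins that fill an intron, as mirtrons do, had one in 7 of 33 cases (21.2%, 8.98 to 38.9%). By arm the counts were 15 of 41 on 2L, 12 of 41 on 2R, 9 of 31 on 3L, 13 of 49 on 3R, 0 of 2 on 4 and 11 of 39 on X. The intervals of the arms overlap as well.

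In all, 84 reproducible summits lay within 5 kb of a hairpin, each near 1 locus only. Of these, 44 were within 500 bp of a transcript start (52.4%, 41.2 to 63.4%), against 48.5% of all 3811 reproducible summits. Another 25 were in introns (29.8%, 20.3 to 40.7%), against 35.5%, and 7 were intergenic (8.33%, 3.42 to 16.4%), against 13.9%. The rest were 4 in other exons, 3 in 3′ UTRs and 1 in a 5′ UTR. The nearest start belonged to a protein-coding gene at 69 of the 84 and to a non-coding gene at 15. On the strand of the hairpin 52 lay upstream, 31 downstream and 1 inside (61.9%, 36.9% and 1.19%).

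**Figure D5:**
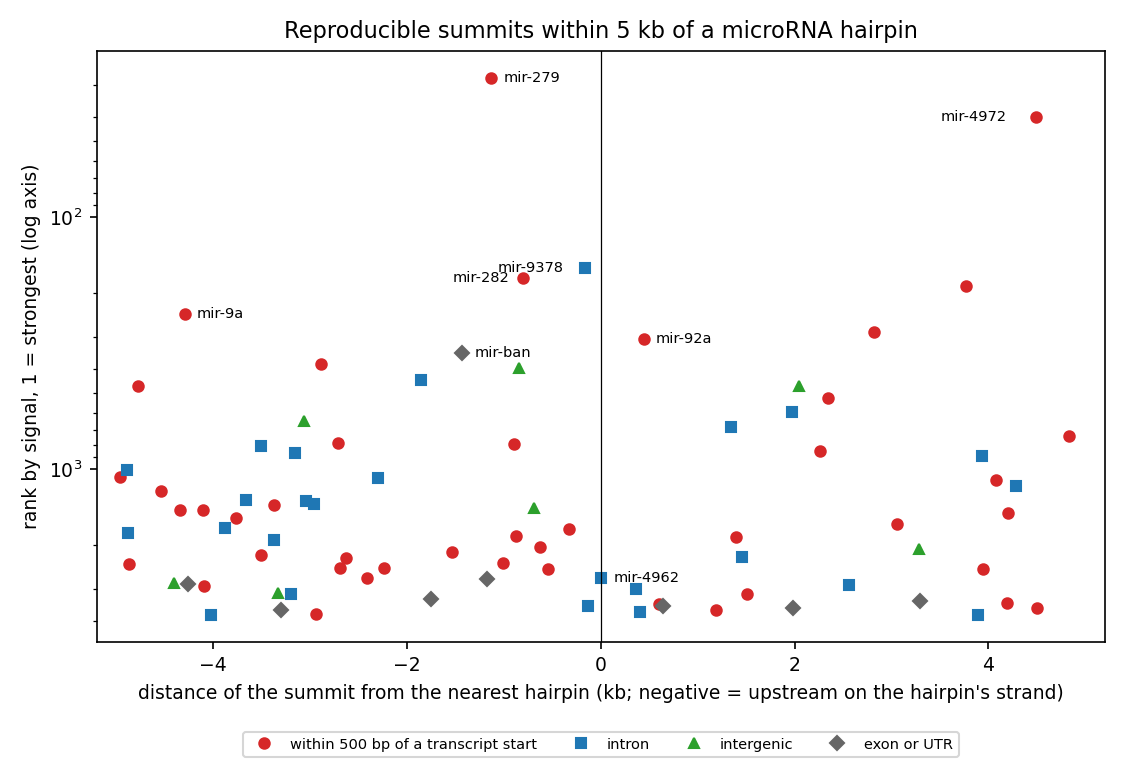
The 84 reproducible summits within 5 kb of a hairpin, by distance from the nearest hairpin in kb (negative is upstream) and rank by signal on a log axis with the strongest on top; marks show where the summit lies. Upstream marks are 52 of 84, and of the 5 summits nearest to a hairpin, the one at mir-9378 has rank 159 and the other 4 have ranks from 1727 to 3511.

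In strength and base composition the 84 were close to the list they come from. Their median rank was 1723, against 1906 for all reproducible summits, and 25 of them (29.8%) lay in its strongest 25%. Of the 84, 59 were among the strongest 3811 peaks of all 3 replicates (70.2%, 59.3 to 79.7%), against 64.3% of all reproducible summits. The mean GC content of the summit windows was 34.5% ± 8.97 (SD, n = 84), against 34.3% ± 8.66 (SD, n = 3811), and in windows 500 bp to each side it was 43.2% and 43.6%. Summits were thus lower in GC content than their flanks both near microRNA genes and over the whole list.

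The core motif AAATCA, looked for in either orientation in the 101 bp around each summit, was present at 8 of the 84 (9.52%, 4.2 to 17.9%), against 14.2% of all reproducible summits. Within 25 bp of the summit the shares were alike, 6 of the 84 (7.14%) against 7.27% of all reproducible summits. In windows of 101 bp set 500 bp to each side the motif was present in 10.1% near microRNA genes and in 9.91% over the whole list. The 8 were the summits nearest to mir-996 (rank 285), mir-9382 (382), mir-955 (522), mir-9377 (681), mir-1006 (888), mir-2283 (1458), mir-4918 (1658) and mir-4910 (3111). The strongest summits of mir-279, mir-9a, mir-282, mir-92a and bantam were not among them. That these letters are missing from a window says nothing about how Senseless was held there.

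A broad list of genes linked to the microRNA pathway was examined as well. Beside the core microRNA genes it holds genes of RNA interference such as Dcr-2 and chaperone genes such as Hsp83. It also holds genes of messenger RNA decay such as DCP1 and of translational repression such as brat, and the counts below do not separate these kinds. Of 32, 19 had a reproducible summit in the gene or within 5 kb (59.4%, 40.6 to 76.3%), against 42.4% of all protein-coding genes. The listed genes have a median of 5337 bp and 2 starts, against 2166 bp and 1 start over all protein-coding genes. The part of length and of extra starts was not tested, here or in the next count. At a start of their own 10 had one (31.2%, 16.1 to 50%), against 16.4%. The strongest was at brat, whose product represses translation in neural stem cells, with rank 79 (86, 76 and 93 in replicates 1, 2 and 3) and 7 reproducible summits. The next 3 had another gene's start as the nearest. The summit of rank 119 near pasha, which encodes Drosha's partner (132, 154 and 94), was 10 bp upstream of Mnat9. The summit of rank 231 near Ars2, whose product works with the cap-binding complex, was 261 bp upstream of l(2)k09848, and replicates 1 and 2 ranked it 170 and 243 while replicate 3 held no peak there. The summit of rank 364 near loqs, which encodes Dicer-1's partner (358, 273 and 674), was 101 bp upstream of CG7099.

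Values of other pathway genes follow. tral, which encodes a repressor of translation, had rank 394 (422, 469 and 268 in replicates 1, 2 and 3) at 187 bp upstream of its start, with the start of sti nearer to the summit. r2d2, which encodes a partner of Dcr-2, had rank 436 (746, 527 and 253) at 157 bp upstream of its start, with that of Herp nearer. gw, the GW182 silencing factor, had rank 883 (583, 919 and 1336 in replicates 1, 2 and 3) at 89 bp upstream of its start. Ranbp21, the exportin that carries hairpins out of the nucleus, had rank 1547 (2969, 1650 and 1388), 86 bp inside. AGO1 had 3 reproducible summits. The strongest had rank 2153 (1309, 2342 and 5457), with Rpn13 as the nearest start, and one of rank 2493 (2373, 2363 and 2760) lay 96 bp upstream of a start of AGO1 itself. Ars2 likewise had a summit at its own start, 122 bp upstream, with rank 2533 (2384, 2938 and 3149). drosha had a pooled summit of rank 5876 and Dcr-2, the Dicer of RNA interference, one of rank 10580, while Dcr-1 had no pooled summit.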

How the data were processed

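ChIP-seq peak lists of 3 replicates in narrowPeak format on dm6 were used, and dm3 lists were not used here. The authors deposited 1 list per replicate, 1 pooled list and 1 IDR list. Each deposited peak has a signal value, a score of unstated scale, a −log10 q-value and a summit offset. No control is listed among the inputs of the dm6 lists, per the deposited text notes; aligner, peak caller and IDR threshold remain not given in the sources used here. Chromatin was sonicated to 200 to 800 bp, per the labels. The label for age holds an impossible value, so the source description was used. Depth is unknown.

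Genes came from Ensembl release 115 and sequence from RefSeq, both on the dm6 assembly, with 1-based positions. Distances ran from summit to hairpin. Transcript starts excluded hairpins, mature microRNAs and transposons. A replicate's rank is that of its peak holding the summit. Replicates are separate biological samples per the labels. Counts have exact binomial intervals, and no test was made. The text names the miR-9 family, the 12 loci with the strongest summits, and loci with 3 summits or a hairpin that overlaps a peak. It also names members of role lists, the 4 strongest pathway genes and loci at the limit. Other pathway genes named, spi, Btk, Hsromega and motif sites were chosen after their values were seen. Members, windows and lists were chosen with earlier results of these data known. Python 3.11.15, numpy 2.4.6, pandas 2.3.3, scipy 1.17.1 and matplotlib 3.10.9 were used, and the distance code was tested on simulated data.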

Additional observations from a re-analysis of the deposited data

How the results depend on the processing

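Of the alternatives tried on the main results, 49 kept a count within 1.5 times the reported one, or a rank within 1 SD of the replicates' ranks, and 13 did not. The 60 loci with a reproducible summit became 15, 27 and 105 with windows of 1, 2 and 10 kb, 36 with the strongest 50% of the list and 95 with pooled peaks 2 times as many. The 165 loci with a pooled summit became 98 within 1 kb and 84 with peaks of q-value at most 0.01. The 59 summits found in every replicate became 29 with 50% as many strongest peaks. The 8 with AAATCA became 14 within 100 bp (16.7%, against 25.8% of all reproducible summits), and the 19 pathway genes 12 within 1 kb. The rank of mir-9a, 242, became 7335 with windows of 1 and 2 kb, and was 438 in replicate 3. Keeping only summits found in both other replicates gave, over the replicates left out, 49 to 50 loci, 122 to 127 with a pooled summit, 62 to 66 summits found in both, 35 to 36 at a start, 7 to 8 with AAATCA, 16 pathway genes and 242 for mir-9a. The pooled calls behind them still used every replicate. Counting host starts too, and counting hosts that share a start once, were chosen after seeing the data. No paired analysis was possible because the series has 1 group. Depth, a control and the signal scale are unknown, which limits what a weak pooled peak means.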

Other observations

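Several of the less studied hairpins had a reproducible summit within 1 kb. mir-2496 had one 630 bp upstream, 287 bp upstream of the start of lncRNA:CR45478, with rank 2042 and nearly equal ranks of 2089, 2106 and 2095 in replicates 1, 2 and 3. mir-4918 had one 332 bp upstream, at the start of tex, whose product exports messenger RNA, with rank 1727 (3764, 1910 and 1133). mir-4975 had one 542 bp upstream with rank 2501, which replicate 1 ranked only 6909 and replicates 2 and 3 ranked 2585 and 1706. mir-375, in lncRNA:CR45345, had one on each side of the hairpin, 694 bp upstream (rank 1426) and 646 bp downstream (rank 3508).

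Over all hairpins on the 6 arms, 481 mature sequences carried 426 distinct seeds, of which 33 were shared by 2 or more genes. The seed of miR-92a and miR-92b is also that of mir-310 to mir-313. The first pair had a summit of rank 305 and the second group one of rank 3611, which replicate 2 ranked only 10638. The seed of miR-279 and miR-996 is also that of mir-286, whose cluster had no pooled summit within 5 kb.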
